A study of Homo sapiens with 2 samples.

Results

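The 9 genes described here encode enzymes and a receptor that handle newly made glycoproteins in the endoplasmic reticulum (ER), among 44591 genes counted by RNA sequencing. They are the glucosidases and the ER mannosidase that trim N-linked sugars (MOGS, GANAB, PRKCSH and MAN1B1), the folding sensors UGGT1 and UGGT2, the cargo lectin LMAN1, and the oxidases ERO1A and ERO1B. The genes were picked by name from these functions with the measured reads of both libraries already known, GANAB and ERO1B among them as higher after LINP1 knockdown. The set is therefore selected on measured values, so the changes below are a description and no test was made of them. All 9 genes had at least 10 reads over both libraries and none was left out, with 764 reads for ERO1B as the fewest and 20783 reads for PRKCSH as the most.

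RNA came from HSC-1, a human cutaneous squamous cell carcinoma line, which received either siNC, an siRNA without a named target, or siLINP1, siRNA directed at the long noncoding RNA LINP1. By the sample labels, cells spent 6 h without serum and then 24 h in serum-containing medium before total RNA was taken, whereas the methods of the study give another confluency and time. There was 1 library per condition, which leaves the spread between cultures unknown, and intervals given here cover counting error alone. The siNC library held 18829544 reads on genes and the siLINP1 library 15383081. LINP1 itself had 167 reads in siNC and 23 in siLINP1 (log2 fold change -2.65, 95% interval -3.35 to -2.02). Of 12 markers of squamous epithelium, 7 in siNC and 6 in siLINP1 were under 1 RPKM (reads per gene length and library total), with summed levels of 41.1 and 39.9 RPKM. None was at 0, but KRT5 (32 and 24 reads) and TP63 (6 and 8 reads) were near it. Above 1 RPKM in siNC were PERP (14.3), SFN (10.7), KRT14 (7.89), DSP (3.79) and KRT17 (1.99 RPKM). The markers thus differ, and these libraries alone do not establish the labelled squamous identity. Single markers moved in opposite directions, such as KRT14 with 243 and 87 reads (-1.27, 95% interval -1.64 to -0.91) and PERP with 1158 and 1398 reads (0.48, 95% interval 0.37 to 0.59). At lower depth, CDH1 had 14 and 3 reads (-2.01, 95% interval -4.45 to -0.17) and KRT6A had 31 and 45 reads (0.75, 95% interval 0.055 to 1.46). The 7 mesenchymal markers summed to 1563 and 1314 RPKM, of which VIM alone made up 1519 and 1278 RPKM. For 1 of these 7 the whole 95% interval lay above 0, and for 5 it lay below 0. Among the latter, COL1A1 had 190 and 79 reads (-1.06, 95% interval -1.45 to -0.67). The median of the 7 was 6.80 RPKM in siNC and 6.63 RPKM in siLINP1, and their part in the values below was not tested. In bulk RNA, fewer cells of a kind and less RNA per cell cannot be told apart.

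In the ER, a preassembled sugar is attached to nascent proteins and is then trimmed step by step. MOGS (glucosidase I) takes off the outermost glucose, and glucosidase II, made of the catalytic subunit GANAB and the ER-retained subunit PRKCSH, takes off the others. A glycoprotein with a single glucose left is held by the lectins calnexin and calreticulin, and UGGT1 puts a glucose back on proteins that are not yet folded. MAN1B1 removes mannose and so directs misfolded glycoproteins towards degradation, LMAN1 carries folded ones such as coagulation factors out of the ER, and ERO1 oxidases supply the oxidizing power with which protein disulfide isomerases make disulfide bonds. Several genes of this machinery are known targets of the unfolded protein response, a signalling pathway that the study examined.

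The comparison of siLINP1 with siNC asked which of these steps changed when LINP1 was knocked down. With the libraries brought to one scale by the median of ratios, a gene is called higher or lower here where the whole 95% interval of its log2 fold change lay above or below 0. By this rule GANAB, ERO1B and UGGT1 were higher, MAN1B1, PRKCSH and LMAN1 were lower, and MOGS, UGGT2 and ERO1A had intervals that include 0. Of all 19840 genes with at least 10 reads, 23.0% were called higher and 25.6% lower, and among the 7071 genes with at least 1000 reads 31.7% and 40.7%, so 3 of 9 in each direction is close to what the whole table shows. GANAB and ERO1B were the 2 members higher by more than 1.5-fold, both with the whole interval beyond it, and 0 members were lower by that much. Among all genes with at least 10 reads, 14.4% passed 1.5-fold upwards and 13.0% downwards, and among genes with at least 1000 reads 5.47% and 3.56%. The median log2 fold change was -0.0041 over the 9 genes and -0.023 over all genes with at least 10 reads.

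**Figure D1:**
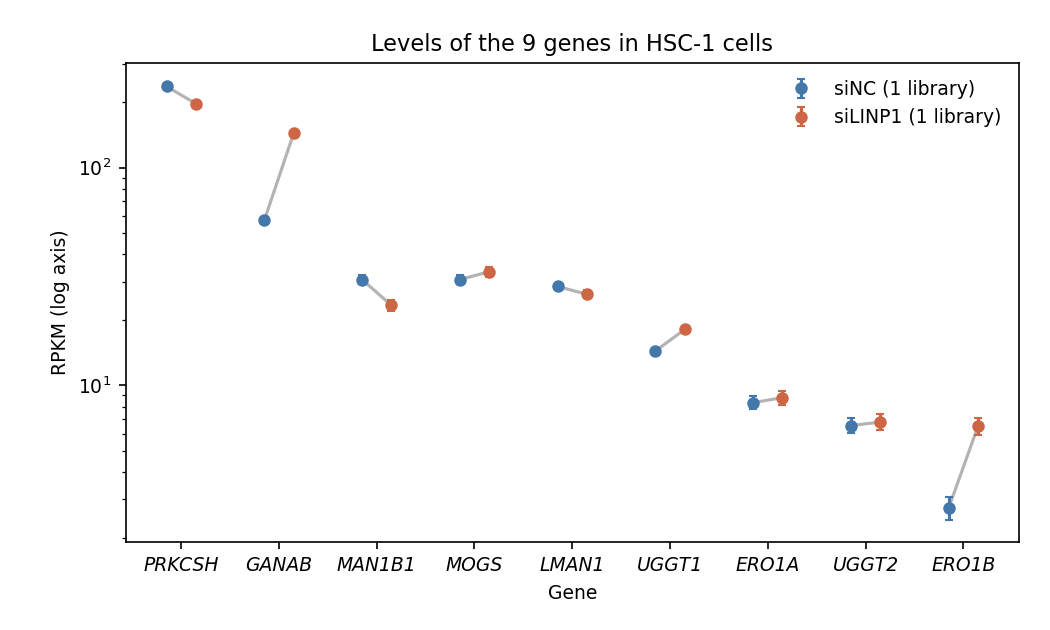
Level of each of the 9 genes in RPKM (log axis) in the siNC library (blue) and the siLINP1 library (orange), joined by a grey line, with bars for the 95% Poisson interval of the count. GANAB goes from 57.3 to 143.9 RPKM and ERO1B from 2.73 to 6.48 RPKM, while the other genes move by less than 1.5-fold after scaling.

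Per length, PRKCSH was the highest of the 9 genes in both libraries, with 236.3 RPKM in siNC and 196.9 RPKM in siLINP1. GANAB came next in both, at 57.3 and 143.9 RPKM. In siNC, MAN1B1 and MOGS followed with levels of 30.7 and 30.6 RPKM and LMAN1 with 28.5 RPKM, and the counting intervals of these neighbours overlapped. UGGT1 (14.4 RPKM), ERO1A (8.33 RPKM), UGGT2 (6.55 RPKM) and ERO1B (2.73 RPKM) were in turn lower, with intervals that did not overlap. In siLINP1, MOGS (33.3 RPKM) was followed by LMAN1 (26.2 RPKM), MAN1B1 (23.3 RPKM), UGGT1 (18.1 RPKM) and ERO1A (8.80 RPKM), again without overlap. The lower end of the order closed up there, since ERO1B reached 6.48 RPKM (95% Poisson interval 5.93 to 7.07) beside UGGT2 at 6.79 RPKM (6.22 to 7.40). The RPKM values rest on the lengths in the deposited table, such as 4359 bases for GANAB and 2779 bases for PRKCSH.

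**Figure D2:**
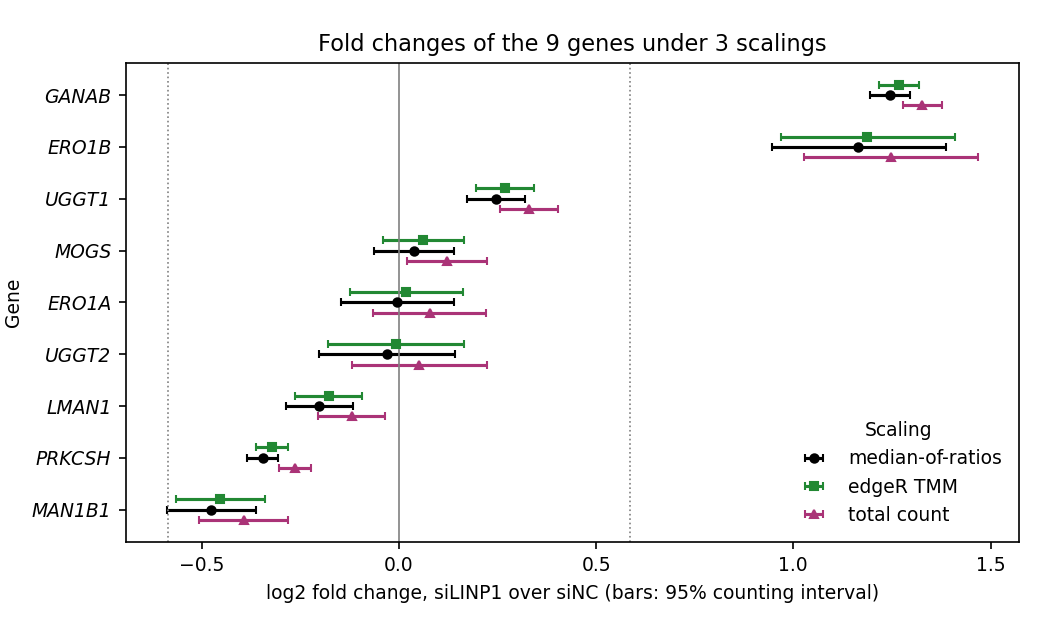
log2 fold change of siLINP1 over siNC for each gene under median-of-ratios (black), edgeR TMM (green) and total count (purple) scaling, with bars for the 95% Clopper-Pearson interval, a solid line at 0 and dotted lines at 1.5-fold. GANAB (1.25) and ERO1B (1.16) lie beyond 1.5-fold under all 3 scalings, and the other 7 genes lie within it.

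Glucosidase II showed the widest divergence, because its subunits moved apart. GANAB, the catalytic subunit, is on the minus strand of chromosome 11 (GRCh37, 62392298 to 62414198), and its main GENCODE transcript has 24 exons. It had 4707 reads in siNC and 9651 in siLINP1, 2.37-fold (2.29 to 2.46) after scaling (log2 fold change 1.25, 95% interval 1.19 to 1.30). Only 54 of the 7071 genes with at least 1000 reads had a larger log2 fold change. PRKCSH, the regulatory subunit, is on the plus strand of chromosome 19 (11546078 to 11561783). Its reads went the other way, from 12365 in siNC to 8418 in siLINP1, 0.787-fold after scaling (log2 fold change -0.35, 95% interval -0.39 to -0.31).

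The subunit ratio does not depend on how the libraries are scaled. PRKCSH stood at 4.12 times the RPKM of GANAB in siNC and at 1.37 times in siLINP1. The fold of GANAB was thus 3.01 times that of PRKCSH (95% conditional exact interval 2.88 to 3.15). GANC, a paralog of GANAB that acts on glycogen-type substrates outside the ER, had 250 and 207 reads and a log2 fold change of -0.063 (95% interval -0.34 to 0.21).

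MOGS, which acts just before glucosidase II, had 1670 reads in siNC and 1484 in siLINP1. After scaling this was a log2 fold change of 0.039 (95% interval -0.063 to 0.14), so no difference was detectable at this depth. Scaling by the total count put it at 0.12 (95% interval 0.019 to 0.22), above 0. The fold of GANAB was 2.31 times that of MOGS (95% interval 2.13 to 2.50), so the glucosidase genes of successive steps did not move together.

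MAN1B1, on the plus strand of chromosome 9 (139981379 to 140003639), had the largest decrease of the 9 genes. It had 1674 reads in siNC and 1041 in siLINP1, 0.719-fold after scaling (log2 fold change -0.48, 95% interval -0.59 to -0.36). Among genes with at least 1000 reads, 7.62% had a lower log2 fold change. The Golgi mannosidases MAN1A1 and MAN1A2, which carry out the same kind of cut further along the pathway, were called higher instead. MAN1A1 had 207 and 221 reads (log2 fold change 0.30, 95% interval 0.024 to 0.58), and MAN1A2 had 719 and 774 reads (0.32, 95% interval 0.17 to 0.46).

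The folding sensors differed little. UGGT1, on the plus strand of chromosome 2 (128848754 to 128953251), had 2971 reads in siNC and 3049 in siLINP1, 1.19-fold after scaling (log2 fold change 0.25, 95% interval 0.17 to 0.32). UGGT2, its paralog on chromosome 13, had 608 and 515 reads (log2 fold change -0.030, 95% interval -0.20 to 0.14). UGGT1 stood at 2.20 times the RPKM of UGGT2 in siNC and at 2.66 times in siLINP1. The log2 fold change of UGGT1 less that of UGGT2 was 0.28 (95% interval 0.090 to 0.46), a small difference with its interval above 0.

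LMAN1, the mannose-binding lectin that leaves the ER with its cargo (minus strand of chromosome 18, 56995055 to 57026508), had 2595 reads in siNC and 1952 in siLINP1. After scaling this was 0.870-fold, or -0.20 as log2 (95% interval -0.29 to -0.12). MCFD2, the soluble partner that forms the cargo receptor with LMAN1, had 3742 and 3275 reads and a log2 fold change of 0.017 (95% interval -0.051 to 0.085). LMAN2, another cargo lectin, had 2710 and 1916 reads and was called lower with a log2 fold change of -0.29 (95% interval -0.38 to -0.21).

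The ERO1 oxidases also differed from each other, since ERO1B was higher and ERO1A was near 0. ERO1B, on the minus strand of chromosome 1 (236378422 to 236445339), had 260 reads in siNC and 504 in siLINP1, 2.24-fold (1.93 to 2.61) after scaling (log2 fold change 1.16, 95% interval 0.95 to 1.39). ERO1A, the form that most cells express and that hypoxia is known to induce, is on the minus strand of chromosome 14 (53106633 to 53162649). It had 865 and 746 reads (log2 fold change -0.0041, 95% interval -0.15 to 0.14). The ERO1A level was 3.05 times the ERO1B level in siNC and 1.36 times in siLINP1 on the RPKM scale. The fold of ERO1B was 2.25 times that of ERO1A (95% interval 1.87 to 2.70).

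**Figure D3:**
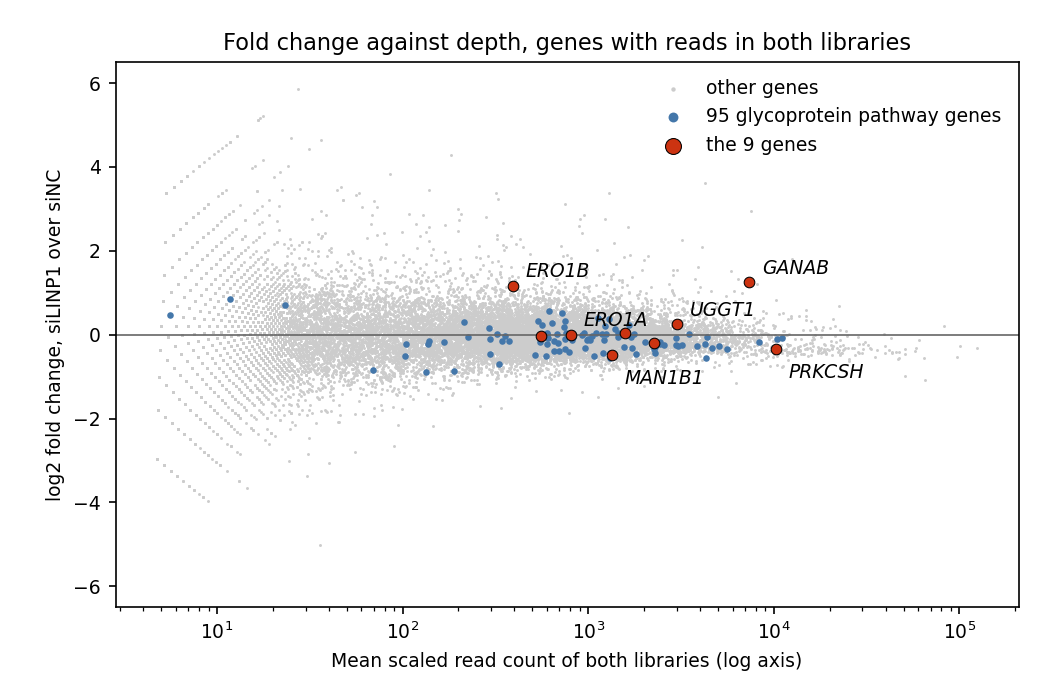
log2 fold change of siLINP1 over siNC against the mean scaled read count of both libraries (log axis) for genes with at least 10 reads in all and at least 1 in each library, with the 9 genes in red, 95 other genes of the glycoprotein pathway in blue and the rest in grey. GANAB lies above every blue point, and PRKCSH lies below 0 among the most deeply read genes.

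For each gene of the diverging pairs, the reference sequence of the 250 bases before the RefSeq start site is given. It reads 5′ to 3′ on the strand of the gene. Capitals mark CCAAT as well as CCACG and also ACGTG, read on either strand. CCAAT is the box bound by NF-Y, CCACG is the end of the ER stress response element (ERSE) that ATF6 is known to bind, and ACGTG overlaps CCACG in the letters ACGTGG. The RefSeq sequences come with GRCh38.p14, and each matched GRCh37 exactly once near its gene, at chr11:62414086-62414335 for GANAB, chr19:11546206-11546455 for PRKCSH, chr1:236445259-236445508 for ERO1B and chr14:53162277-53162526 for ERO1A. PRKCSH has 3 start sites in the table, of which the most upstream is shown. The RefSeq start sites differ from the ends of the genes as counted here. By those ends, the PRKCSH and ERO1A stretches lie wholly inside their genes, and the GANAB and ERO1B stretches lie partly inside.
GANAB: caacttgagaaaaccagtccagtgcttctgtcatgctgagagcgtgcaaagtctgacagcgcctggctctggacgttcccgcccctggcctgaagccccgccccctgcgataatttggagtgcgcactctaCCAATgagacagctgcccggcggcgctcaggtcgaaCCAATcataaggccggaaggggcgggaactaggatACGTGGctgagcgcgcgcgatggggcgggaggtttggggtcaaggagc
PRKCSH: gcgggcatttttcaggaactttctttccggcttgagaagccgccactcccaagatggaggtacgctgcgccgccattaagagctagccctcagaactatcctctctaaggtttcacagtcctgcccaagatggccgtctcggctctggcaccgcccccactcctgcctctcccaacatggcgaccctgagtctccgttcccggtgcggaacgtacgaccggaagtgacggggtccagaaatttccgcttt
ERO1B: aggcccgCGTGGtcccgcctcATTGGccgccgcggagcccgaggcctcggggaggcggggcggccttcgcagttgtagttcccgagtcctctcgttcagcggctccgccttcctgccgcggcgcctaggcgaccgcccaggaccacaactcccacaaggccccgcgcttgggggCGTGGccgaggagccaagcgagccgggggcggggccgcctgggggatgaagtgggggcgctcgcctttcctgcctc
ERO1A: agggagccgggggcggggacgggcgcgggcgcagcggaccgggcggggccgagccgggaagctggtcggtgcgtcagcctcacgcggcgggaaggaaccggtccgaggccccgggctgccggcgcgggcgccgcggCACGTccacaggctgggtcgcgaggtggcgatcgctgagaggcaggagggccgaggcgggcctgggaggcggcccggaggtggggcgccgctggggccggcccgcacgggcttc

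ERO1B held a full ERSE, CCAAT and CCACG spaced by 9 bases, on the reverse strand starting 243 bases before the start site. Of 35116 promoters of the same length, 26 held this element (0.0740%), and no other of the 8 members with a promoter in the table did. GANAB held CCAAT 119 and 83 bases and CCACG 47 bases before its start site, at another spacing. CCAAT was in 32.0% of all promoters, CCACG in 33.5% and ACGTG in 18.5%. ERO1A held ACGTG alone. PRKCSH held none of these letters before the start site shown, but CCAAT 5 times in the 250 bases before its most downstream start site. The other searches, for ERSE-II (ATTGG and CCACG spaced by 1 base), the XBP1 element TGACGTGG and the ATF4 element TGATGNAA, had no match in any member and matched 0.0513%, 0.612% and 3.14% of all promoters. No MOGS promoter was in the table. A match in these letters is a description of the sequence, and binding was not measured.

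Genes that share the ERSE with ERO1B moved in both directions. There were 25 genes with the element, and 15 of them besides ERO1B had at least 10 reads. Of these 15, 2 were called higher, 8 lower and 5 neither, with a median log2 fold change of -0.087. With total count scaling, added after the values were seen, 3 were called higher and 6 lower with a median of -0.0046. Neither split was tested against the whole table. There 23.0% of genes were called higher and 25.6% lower with the median of ratios, and 5643 and 3914 of 19840 genes with total count scaling. For genes with at least 1000 reads, the median of ratios gave 31.7% and 40.7%. XBP1, a transcription factor of the unfolded protein response, was higher with 1742 and 2369 reads (0.65, 95% interval 0.56 to 0.74), and so was ZNF17 with 85 and 177 reads (1.27, 95% interval 0.89 to 1.66). HSPA5, the ER chaperone BiP, had 11703 and 9274 reads (-0.13, 95% interval -0.17 to -0.087), and HSP90B1, the ER form of HSP90, had 11403 and 8066 reads (-0.29, 95% interval -0.33 to -0.25). With total count scaling HSPA5 was at -0.044 (95% interval -0.083 to -0.0045) and HSP90B1 at -0.21 (95% interval -0.25 to -0.17). By qPCR after LINP1 knockdown, the study reports higher mRNA of XBP1 and also of HSPA5, which it names GRP78. These 4 genes were picked after their values were seen.

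The study lists oligonucleotides siLINP1_01 and siLINP1_02 and its text does not say which was used for sequencing. Their target sequences are given because short matches to bases 2 to 8 of an siRNA guide can lower other mRNAs. Capitals mark the letters that pair with those bases.
siLINP1_01: ccaactgcgggACTTCAGa
siLINP1_02: cactctccagcCTGCAAGa

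In the 3′ untranslated regions of the main GENCODE transcripts, the letters ACTTCAG occurred once each in UGGT1 and LMAN1 and 2 times in ERO1A, and CTGCAAG occurred once in ERO1A. Of the 13577 genes that had at least 10 reads and such a region in GENCODE, 16.4% held the former and 13.4% the latter. Among the genes with a match, LMAN1 was called lower (log2 fold change -0.20), UGGT1 higher (0.25) and ERO1A neither (-0.0041). Whether a match lowered LMAN1 was not tested. The other 6 genes held neither sequence, among them GANAB and ERO1B, which were higher, and PRKCSH and MAN1B1, which were lower. The region is 986 bases long in GANAB, 3415 in ERO1B, 3655 in ERO1A, 339 in PRKCSH and 592 in MAN1B1, and a longer one can hold more matches of any kind.

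The other 99 genes of the pathway were listed by function in 7 steps, and 95 of them had at least 10 reads. Of these 95, 13 were called higher and 44 lower, with a median log2 fold change of -0.14. In the whole table the called genes divided as 4557 higher and 5081 lower. With total count scaling the pathway had 17 higher and 36 lower genes, and there were 5643 higher and 3914 lower genes in all. Lower genes thus outnumbered higher ones in the pathway under both scalings, while in the whole table the balance turned. The pathway genes were read more deeply, with a median of 1912 reads against 437 over all genes, and deeper genes are called more often. With at least 1000 reads, 12 of 74 pathway genes were higher and 38 lower, beside 2245 and 2875 of all 7071 with the median of ratios. These splits were not tested. Beyond 1.5-fold there were 2 genes higher and 4 lower among the 95, and 0 had the whole interval beyond it in either direction. Among the 92 with at least 100 reads, none had a log2 fold change as high as GANAB or ERO1B, and 10 lay below MAN1B1. The nearest to GANAB were TMX3 (534 and 684 reads, 0.57), a transmembrane disulfide isomerase, then PRDX4 (642 and 794 reads, 0.52), a peroxidase that also feeds oxidation in the ER, and MAN2A1 (1051 and 1188 reads, 0.39), a Golgi mannosidase.

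**Figure D4:**
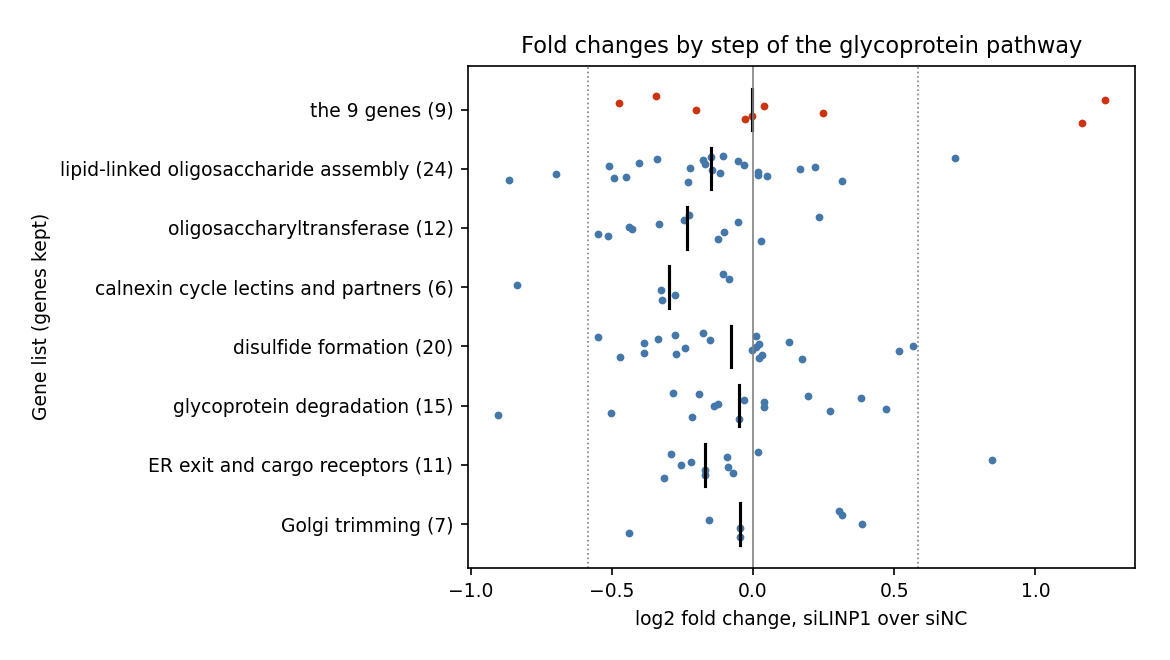
log2 fold change of siLINP1 over siNC for the 9 genes (red) and for the other pathway genes with at least 10 reads by step (blue), with a black bar at each median, a solid line at 0 and dotted lines at 1.5-fold. GANAB and ERO1B lie to the right of all blue points, and the calnexin cycle list lies wholly below 0.

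In the steps before glucose trimming, more genes were called lower than higher. With the median of ratios, this also held over all genes with at least 1000 reads. Of 24 genes that assemble the lipid-linked sugar, 2 were called higher and 10 lower (median -0.15), and of 12 genes of the oligosaccharyltransferase, which transfers it to proteins, 1 was higher and 7 lower (median -0.23). With total count scaling these counts were 4 and 7 for assembly and 1 and 7 for the transferase. Among all genes with at least 1000 reads, 31.7% were called higher and 40.7% lower. With total count scaling, 2895 of those 7071 genes were higher and 2187 lower. The counts of both lists are read beside these. The catalytic subunits of that enzyme differed. STT3A, which works during translocation, had 2828 and 2090 reads (log2 fold change -0.23, 95% interval -0.31 to -0.14). STT3B, which can act later, had 1633 and 1660 reads (0.23, 95% interval 0.13 to 0.33).

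In the calnexin cycle, which receives the product of glucosidase II, total count scaling changed the calls for calnexin and calreticulin. All 6 genes of the calnexin cycle list were called lower with the median of ratios, with a median log2 fold change of -0.30. All 6 were also lower with edgeR TMM. Under scaling by the total count 4 of them were lower, and the median was -0.22. The share called lower over all genes with at least 1000 reads was 40.7%, and 2187 of those 7071 genes were under total count scaling. CANX (calnexin) had 11559 and 9285 reads and a log2 fold change of -0.11 (95% interval -0.15 to -0.067). CALR (calreticulin) had 12336 and 10046 reads (-0.087, 95% interval -0.12 to -0.049). With total count scaling both intervals include 0, at -0.024 (95% interval -0.064 to 0.015) for CANX and -0.0046 (95% interval -0.043 to 0.034) for CALR. PDIA3, the isomerase that works with both, had 5585 and 3851 reads (-0.33, 95% interval -0.39 to -0.27), and SELENOF, a selenoprotein that binds UGGT1, had 1147 and 794 reads (-0.32, 95% interval -0.45 to -0.19).

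Among genes of disulfide formation, which include partners of the ERO1 oxidases, 4 of 20 with at least 10 reads were called higher and 9 lower. The shares over all genes with at least 1000 reads were 31.7% and 40.7%. With total count scaling 5 of the list were higher and 9 lower, and its median of -0.077 became 0.0048. Of the 7071 genes with at least 1000 reads, 2895 were higher and 2187 lower under that scaling. P4HB, the main isomerase that ERO1 reoxidizes, had 9480 and 7253 reads (-0.18, 95% interval -0.22 to -0.13), PDIA4 had 3595 and 2566 reads (-0.28, 95% interval -0.35 to -0.20) and PDIA6 had 5544 and 3274 reads (-0.55, 95% interval -0.61 to -0.49). Of the rest of the list, some were also called lower, some went the other way and some had intervals that include 0. TMX3, PRDX4 (95% interval 0.36 to 0.67), DNAJC10 (0.17) and TXNDC12 (0.13) were the 4 called higher.

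After trimming, 3 of 15 genes of glycoprotein degradation were called higher and 5 lower, and 3 and 3 under scaling by the total count. Their median of -0.051 became 0.031 under that scaling. OS9, a lectin that recognizes mannose-trimmed glycans, had 1206 and 1361 reads (0.38, 95% interval 0.27 to 0.50), and EDEM1, a mannosidase-like protein of the same step, had 1846 and 1311 reads (-0.28, 95% interval -0.39 to -0.18). Of 11 genes of ER exit, 0 were higher and 6 lower (median -0.17), and 1 and 5 under scaling by the total count (median -0.088). Of 7 Golgi trimming genes with at least 10 reads, 3 were higher and 1 lower, and their median of -0.045 became 0.037 under scaling by the total count. The counts of these lists are read beside the 31.7% higher and 40.7% lower over all genes with at least 1000 reads. With total count scaling, 2895 of those 7071 genes were higher and 2187 lower.

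Reads of neighbouring genes bear on how the counts can be read, since the strand setting of the counting is not given in the sources used here. No exon on the opposite strand overlapped an exon of GANAB in GENCODE. The nearest coding genes on either side of GANAB, both on its own strand, were called lower, with 1252 and 960 reads for INTS5, which ends 122 bases beyond the GANAB start (-0.17, 95% interval -0.30 to -0.051), and 2203 and 1455 reads for B3GAT3 (-0.39, 95% interval -0.49 to -0.29). For ERO1B, opposite exons of RNU2-70P cover 1.17% of its exonic bases, and that pseudogene had 0 and 3 reads. Its neighbour GPR137B, with 334 and 369 reads (0.35, 95% interval 0.14 to 0.57), was called higher by less than ERO1B. EDARADD had 16 and 17 reads (0.30, 95% interval -0.78 to 1.38), an interval that includes the ERO1B value. CCDC151 overlaps PRKCSH with 45 and 28 reads. An antisense gene that covers 7.70% of the exonic bases of ERO1A had 22 reads in each library. For MOGS, 2.01% of the exonic bases lie opposite an exon of an unnamed gene, and pseudogenes inside UGGT1 (LOC100419085) and UGGT2 (HMGN1P24) had 0 and 0 and 0 and 2 reads.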

How the data were processed

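HSC-1 cells given siNC and those given siLINP1 were each sequenced as 1 RNA library. The authors used Tophat2 on the GRCh37/hg19 genome and HTSeq for counting reads on genes, and the submitters' processing notes also name HISAT2, HISAT and Bowtie2. Versions, annotation, counting mode and strand setting are not given in the sources used here. The deposited values are raw read counts, and the authors' RPKM values equal the count divided by gene length and library total. The table's 12 other columns of per-sample values were not used.

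Size factors from the median of ratios (1.08 for siNC, 0.930 for siLINP1) scaled the counts, without a pseudocount, over genes with at least 10 reads. Intervals are 95% Clopper-Pearson intervals of the split of a gene's reads, conditional exact intervals of the odds ratio for pairs and Poisson intervals for RPKM, and all cover counting error alone, so that deeper genes have narrower ones. No p-value was computed. Alternatives were total count and edgeR TMM scaling, pseudocounts of 1 and 5, minimums of 1 and 100 reads, and protein-coding genes only. The calculations were tested on simulated data. Members and lists were chosen with earlier results of these data known. The genes named were all 9 members, LINP1, partners set by role, list members with the whole interval beyond 1.5-fold, the 3 pathway genes nearest to GANAB, and overlapping or adjacent genes. KRT5, TP63, PERP, SFN, DSP, KRT17, CDH1, KRT6A, VIM, DNAJC10, TXNDC12 and genes with an ERSE were named after their values were seen. Promoters were those of RefSeq (GRCh38.p14, 8 of 9 genes) and transcripts those of GENCODE on GRCh37 (9 of 9). Software was R 4.3.3 with edgeR 4.0.16, and Python 3.11.15 with scipy 1.17.1, pandas 2.3.3, numpy 2.4.6 and matplotlib 3.10.9.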

Additional observations from a re-analysis of the deposited data

How the results depend on the processing

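No paired analysis was possible because each condition had 1 library, and for the same reason no replicate could be left out. Scaling by the total count shifted every log2 fold change by 0.082 and edgeR TMM factors by 0.023. The former moved GANAB to 1.33, PRKCSH to -0.26 and UGGT1 to 0.33, beyond their counting intervals but in the same direction, and put MOGS above 0. The 6 genes called higher or lower kept their direction under both scalings and under pseudocounts of 1 and 5. The sign of UGGT2 and ERO1A, whose intervals include 0, was positive under total count scaling, and that of ERO1A under TMM too. The pathway genes higher by more than 1.5-fold numbered 4 under total count scaling, 4 with a minimum of 1 read and 0 with a minimum of 100 reads, against 2. Whole-table counts beyond 1.5-fold were 7048 upwards and 6456 downwards with a minimum of 1 read, 1163 and 903 with 100 reads, and 1558 and 1492 among protein-coding genes, because the genes counted differ. CANX and CALR lost the lower call under total count scaling, which was added for them after the values were seen. Depth limits ERO1B most among the 9 genes, with 764 reads and the widest interval. Differences between cultures cannot be told apart from the siRNA.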
